A study of Gorilla gorilla with 12 samples.

Results

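The histone genes described here are H1-2, H2BC12, H2AZ1, H2AX and H3-3B, measured in fibroblast lines of gorillas. They were taken as every probe set whose annotation gives 1 gene symbol, that of a member. This found 4 of the 5 genes, with 1 probe set each, among 8229 genes and 12625 probe sets on the array: H1-2 (37018_at), H2BC12 (32819_at), H2AZ1 (39337_at) and H2AX (40195_at). H3-3B was listed only on 2 probe sets that name other genes as well, so no value is given for it. The set was selected on values of these arrays, with earlier results known, among them the level of H2BC12 in the line labelled female 3 and its slope on donor age. The values of the members are therefore descriptions, and the p-values printed beside them support nothing about why these genes were picked.

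Expression was measured in 11 lines of cultured fibroblasts, the cells that make connective tissue matrix, each from another gorilla labelled normal and grown in the same standard way. Donors of the lines labelled female, numbered female 1 to 6 here, were aged 19, 19, 35, 26, 30 and 2 years, and those of the lines labelled male, numbered male 1 to 5, were aged 19, 26, 24, 18 and 3 years. Male line 2, of the 26-year-old donor, was also grown to 50% confluence, with part of the dish still bare, and measured on 1 further array. Each line stands for 1 animal, and the tests therefore weigh differences against the variation from line to line.

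Histones are the proteins around which DNA is wound: H2A, H2B, H3 and H4 form the core of the nucleosome, and H1 linker histones sit where DNA enters and leaves it. Most histone genes are replication-dependent. They are transcribed in bulk during DNA synthesis, and their messages end in a stem-loop in place of a poly(A) tail. Some of them, H1-2 and H2BC12 included, are known to make polyadenylated messages as well. Variant histones such as H2A.Z and H3.3 come from genes with ordinary polyadenylated messages that are used through the cell cycle, and H2AX is known to make messages of both kinds. Labelling from the poly(A) tail is neither stated nor denied for these arrays in the sources at hand.

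The deposited values are intensities with a floor of 100, and 40.1% to 48.8% of the probe sets of a standard array stood exactly at that floor. Fold changes at 50% confluence and tests are on log2 intensities after quantile normalization. Intensities are printed as deposited, and folds between lines are ratios of these deposited values. The probe sets were designed on human sequence, so the level of 1 gene is not read against that of another. All 11 fibroblast markers with a probe set, out of 12 listed, were above the floor on all 12 arrays, with summed intensities of 91778 to 124144 in the lines labelled female, 82274 to 139499 in the male lines and 86596 at 50% confluence. KRT5 and KRT14 of epithelium, VWF of endothelium, PTPRC and LYZ of leukocytes, TYRP1 of melanocytes and MYH3 of skeletal muscle were at the floor on every array. The other markers of these lists with a probe set were above the floor on at least 1 array. Among them, 1 of 8 epithelial, 2 of 6 leukocyte and 1 of 4 melanocyte markers were above it on all 12. KRT10, CD14 and CD68 reached the highest values of these lists. Whether other cell types were present was not tested. The line labelled female 3 went against its label: RPS4Y1, a Y-linked ribosomal protein gene, had 2595 there. The other lines labelled female had 100 to 115, and male lines had 2662 to 4363. That line also had the oldest donor and the lowest mean levels of 26 DNA synthesis genes and 34 mitosis genes. Its 3' to 5' ratio of ACTB was the highest, 1.19 against 0.672 to 1.19 over the 11 lines, with 1.17 in female 5. Its ratio of GAPDH, 0.869, lay toward the low end of 0.821 to 1.34 over those lines. The part of these traits in the results was not tested, and each result that rests on that line is given with and without it.

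H1-2, a linker histone gene of the replication-dependent class, was close to the floor in most lines and stood out in 1 of them. Its intensities were 111, 100, 785, 135, 100 and 100 in females 1 to 6 and 100, 130, 100, 196 and 113 in males 1 to 5. The line labelled female 3 was 4.01-fold above the next highest line, male 4, and 5 of the 11 lines were at the floor. The SD over lines was 0.89 log2 units, at percentile 97.2 of the SDs of all 7541 tested probe sets. Without the line labelled female 3 it was 0.29, at percentile 20.6.

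H2BC12, which encodes a core histone H2B, had a smaller rise in the same line. Its intensities were 342, 432, 962, 355, 280 and 179 in females 1 to 6 and 358, 375, 263, 263 and 229 in males 1 to 5. The line labelled female 3 was 2.23-fold above female 2, the next highest, and the lowest value belonged to female 6, from the 2-year-old donor. No line was at the floor. The SD over lines was 0.65 (percentile 88.1), and 0.42 (percentile 54.3) without the line labelled female 3, close to the median SD of 0.40 over all tested probe sets in the same 10 lines.

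H2AZ1 encodes H2A.Z, a variant of H2A found around transcription start sites. Its intensities were 1270, 2000, 793, 1018, 3407 and 2272 in females 1 to 6 and 1656, 963, 2737, 1782 and 3393 in males 1 to 5. The order of the lines differed from that of the replication-linked genes. The line labelled female 3 was the lowest and male 2 the next, while female 5 and male 5 were the highest, 3407 and 3393, and did not separate from each other. The SD over lines was 0.73 (percentile 92.6), and 0.66 (percentile 89.6) without the line labelled female 3.

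H2AX encodes the H2A variant that is phosphorylated next to DNA double-strand breaks. Its intensities were 636, 743, 594, 284, 1018 and 559 in females 1 to 6 and 953, 641, 1391, 997 and 1003 in males 1 to 5. Male 3 was the highest and female 4 the lowest, a 4.90-fold range, and 4 lines lay between 953 and 1018 with little to order them. The line labelled female 3, at 594, was neither the highest nor the lowest. The SD over lines was 0.59 (percentile 83.4), and 0.62 (percentile 86.1) without that line, so for both variants the spread came mostly from other lines.

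**Figure D1:**
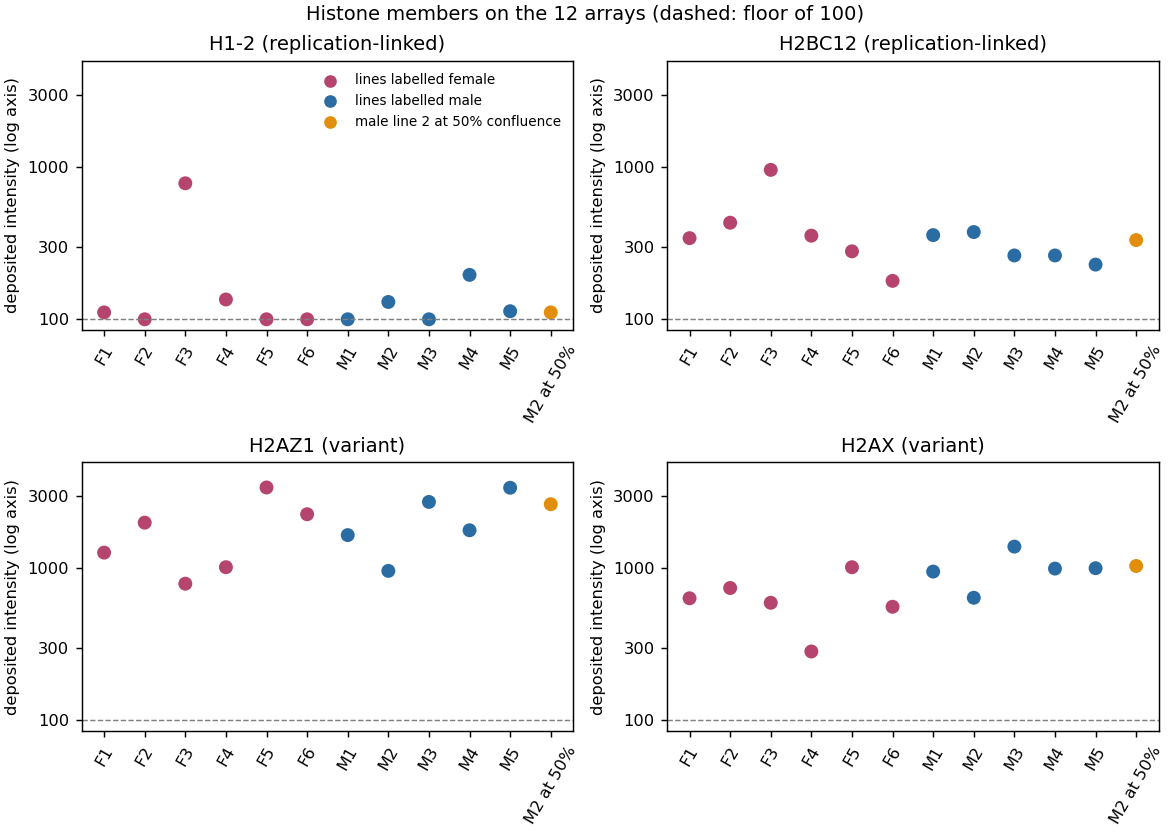
Deposited intensity (log axis) of H1-2, H2BC12, H2AZ1 and H2AX on each of the 12 arrays, 1 point per array; F and M are the lines labelled female and male, M2 at 50% is male line 2 at 50% confluence, and the dashed line is the floor of 100. H1-2 reaches 785 and H2BC12 962 in F3, above every other array, while H2AZ1 has its lowest value, 793, in that line.

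The other replication-dependent genes were read from a list of 70 genes, of which 24 had a probe set of 1 symbol and 11 passed the filter on mean level. In 10 of those 11 genes, H1-2 and H2BC12 among them, the line labelled female 3 had the highest of the 11 values. Over all tested probe sets that line was the highest in 10.4%. H2BC12's level in that line helped to choose the set, so the count that leaves the members out is the one to read, and it was 8 of 9. The exception was H1-3, a second linker histone, which had 243 in that line and 271 in female 2. With that line left out, female 2 had the highest value in 7 of the 11 genes, male 4 in 2, and females 1 and 4 in 1 each. The gene of female 4 was H2BC21, for which male 5 was higher as deposited, 179 against 175. Over all 11 lines, female 2 was the highest for 5.62% of all tested probe sets, male 4 for 7.08%, female 1 for 7.48% and female 4 for 9.53%. These shares with the line labelled female 3 left out were not computed, so they are not a like measure for the counts without it.

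Among the H2B genes, all 7 tested ones, the member H2BC12 included, were highest in the line labelled female 3. H2BC14 had 1534 there and at most 1157 elsewhere, and H2BC6 had 671 against at most 569, so these values stood only a little above the range of the other lines. H2BC13 had 534 against at most 236, H2BC21 had 374 against at most 179, and H2BC15 had 626 against at most 436. H2BC5 had 408 in that line, 169 in female 2 and 100 in 6 of the 11 lines. Both tested H2A genes had the same order at the top, with 478 against at most 323 for H2AC6 and 408 against at most 311 for H2AC16. Several of these probe sets, those with _f_at in their names, are marked by the array's design as matching more than 1 member of a gene family, so the genes are not separate measurements. The gene table for the gorilla assembly NHGRI_mGorGor1-v2.1 lists 13 replication-dependent genes of the array under the same symbol and places 12 of them, H1-2 and H2BC12 included, on 1 chromosome. H2AZ1, H2AX and H3-3B lie on 3 other chromosomes.

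The median distance of the line labelled female 3 from the median of the other 10 lines was 1.66 log2 units over the 11 replication-dependent genes, members included. It was 0 over all tested probe sets, and it was not computed without the members. With the members included, the count was 10 of 12 tested genes as deposited and after median scaling, and 10 of 11 with a floor of 200. With the filter at the 60th percentile, 5 genes were left and all 5 were highest in that line. With no filter, 10 of 24 genes were highest in that line, and the 13 further genes had at most 184 on any array. The filter used means that include that line. Every tested gene also passed it with that line left out, and so did H1-1 and H4C9, which were not tested. These 2 genes go against the pattern, with 100 in that line and up to 154 and 184 elsewhere. The 11 tested probe sets that list several replication-dependent histone genes were read apart, and 7 of them were highest in that line.

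The variant histones gave other counts. Of 5 tested genes, 0 were highest and 1, H2AZ1, was lowest in the line labelled female 3, where 8.55% of all tested probe sets were lowest, and their median distance from the other lines was -0.29 log2 units. H2AZ2, a second gene for H2A.Z with 2 probe sets, had 436 and 527 there, within the 331 to 793 and 492 to 1073 of the other lines. MACROH2A1, which encodes macroH2A with its large extra domain, had 961 against 674 to 1691. H1-10, a linker histone expressed outside of DNA synthesis, had 317 and 2723 on its 2 probe sets, inside the range of the other lines on each.

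**Figure D2:**
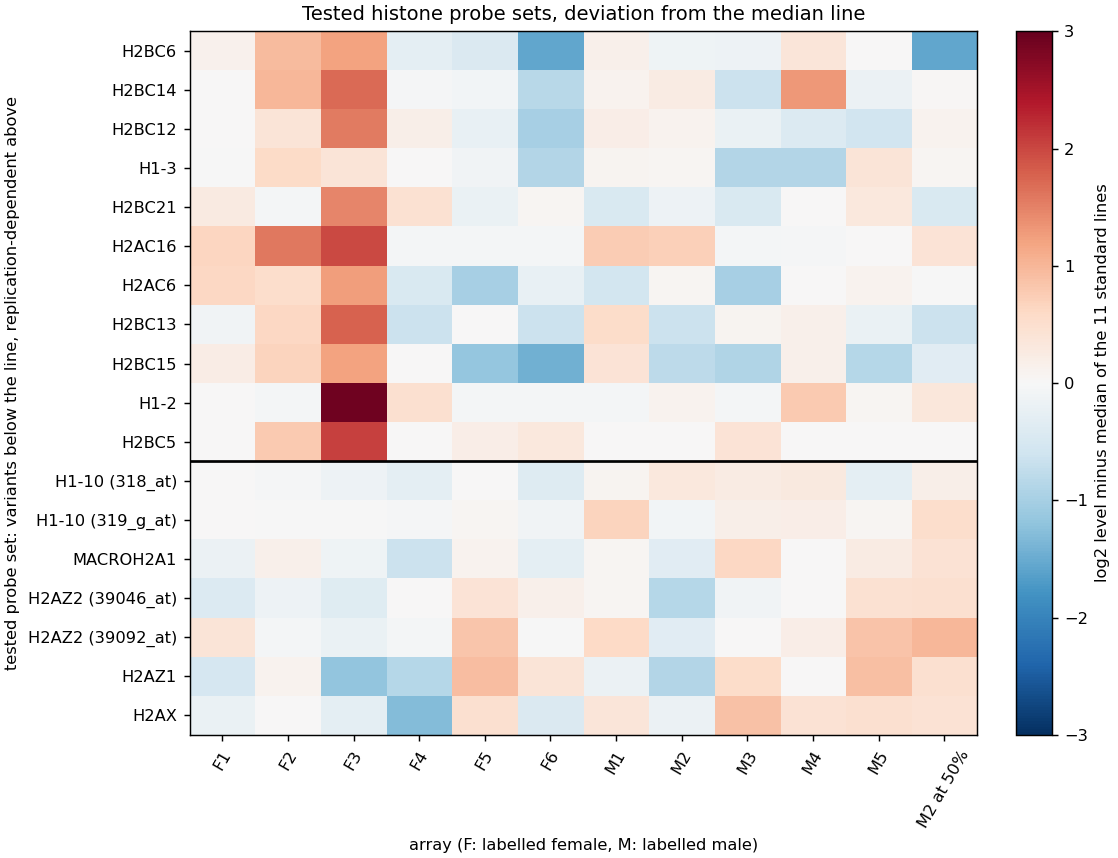
Log2 level (quantile-normalized) of each tested histone probe set minus the median of the 11 standard lines, as colour, for the 12 arrays; rows above the black line are replication-dependent genes and rows below it variants. Column F3 is red in all 11 rows above the line, with 2.92 for H1-2 and 1.56 for H2BC12, and blue for H2AZ1 (-1.19) below it.

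Genes around histone supply and the cell cycle gave the setting for that line. Over all tested probe sets, 8.55% were lowest and 10.4% highest in it, and the counts below are to be read beside these shares. Among 26 tested genes of DNA synthesis, 7 were lowest and 0 highest in the line labelled female 3, with a median distance of -0.75 log2 units. Among 34 mitosis genes, 20 were lowest and 0 highest, with a median distance of -1.07. E2F1, a transcription factor that drives entry into DNA synthesis, had 116 there, its lowest value, and CCNB2, a cyclin of mitosis, had 134, its lowest as well. Of 25 histone chaperones, proteins that carry histones to and from DNA, 6 were lowest in that line (median distance -0.45), and of 16 genes for the processing of histone message ends 3 were lowest and 2 highest (median distance -0.011). Of 13 growth arrest genes 3 were highest and 0 lowest there (median distance 0.27). GAS1, which is known to rise in resting fibroblasts, had its highest value there, 5850, in a range over the lines that began at 717. TOB1, an antiproliferative gene, had 1122, its highest value as well. IGFBP2 and BTG1 of the same list were not highest there, with 4341 against 8899 and 1619 against 1819 in the highest line. So, with the members left out, 8 of 9 replication-dependent histone genes were highest in the line with the lowest mean of both cell cycle lists. Several of them are on probe sets that share sequence, so they are not separate measurements. The low mean of DNA synthesis was not particular to that line, with 7.58 log2 units there, 7.62 in female 4 and 7.64 in female 1. Females 4 and 1 had 135 and 111 for H1-2 and 355 and 342 for H2BC12. For mitosis the means were 7.57, 7.96 and 8.17 in the same order. In RNA of whole cultures, fewer cells that make a message and less of it per cell cannot be told apart.

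Across the 11 standard lines H2AX and H2AZ1 ran with the cell cycle lists, while r of the replication-linked members with those lists was below 0. These are descriptions of genes chosen with the arrays known, with two-sided permutation tests over 100000 resamples and Benjamini-Hochberg adjustment over the 14 relations computed. H2AX followed the mean of the 26 DNA synthesis genes (r = 0.82, rho = 0.83, n = 11, permutation p = 0.00275 and 0.00308, adjusted p = 0.0301 and 0.0380). Without the 2 lines farthest from the median on that mean, male 3 and the line labelled female 3, r was 0.81, and without the latter alone it was 0.83. It also followed the 34 mitosis genes (r = 0.75, rho = 0.79, n = 11, permutation p = 0.00596 and 0.00543, adjusted p = 0.0301 and 0.0380), with r = 0.76 without the 2 farthest lines and 0.80 without the line labelled female 3. Without female 5 the adjusted p of r was 0.0570 for DNA synthesis and 0.0634 for mitosis in the permutation test, and without male 5 it was 0.0645 for mitosis.

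H2AZ1 followed the mitosis genes (r = 0.78, rho = 0.76, n = 11, permutation p = 0.00645 and 0.00878, adjusted p = 0.0301 and 0.0410). Here r was 0.60 without the 2 farthest lines, and 0.69 with an adjusted p of 0.108 in a permutation test without the line labelled female 3. The adjusted p of that test was also above 0.05 without female 5 (0.0653), male 3 (0.0526) or male 5 (0.0645). Its relation to the DNA synthesis genes was looser (r = 0.59, rho = 0.59, n = 11, permutation p = 0.0524 and 0.0615, adjusted p = 0.0814 and 0.108). Without the 2 farthest lines r was 0.48, and without the line labelled female 3 it was 0.51, with an adjusted p of 0.300 in the permutation test. After sex and age were fitted and removed, H2AZ1 had r = 0.77 with the DNA synthesis genes and 0.81 with the mitosis genes. H2AX then had 0.73 and 0.69, the latter with an adjusted p of 0.0582 in the permutation test.

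The replication-linked members gave no positive relation to DNA synthesis over the 11 lines, and the difference from the variants' relations was not tested. H2BC12 had r = -0.27 and rho = -0.24 (n = 11, permutation p = 0.418 and 0.485, adjusted p = 0.444 and 0.522), and r = 0.027 without the line labelled female 3. H1-2 had r = -0.37 and rho = -0.54 (n = 11, permutation p = 0.215 and 0.0886, adjusted p = 0.274 and 0.138), and r = -0.11 without that line. With the mitosis genes r was -0.59 for H1-2 and -0.46 for H2BC12 (n = 11, permutation test, adjusted p = 0.0524 and 0.221), and -0.25 and -0.038 without that line. For H1-2 and mitosis the adjusted p of the permutation test passed 0.05 without female 1 (0.0451), female 6 (0.0434) or male 4 (0.0243). Male 3, with the highest mean of the DNA synthesis genes (9.65 log2 units), had 100 for H1-2 and 263 for H2BC12, while the same line had the highest H2AX, 1391.

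**Figure D3:**
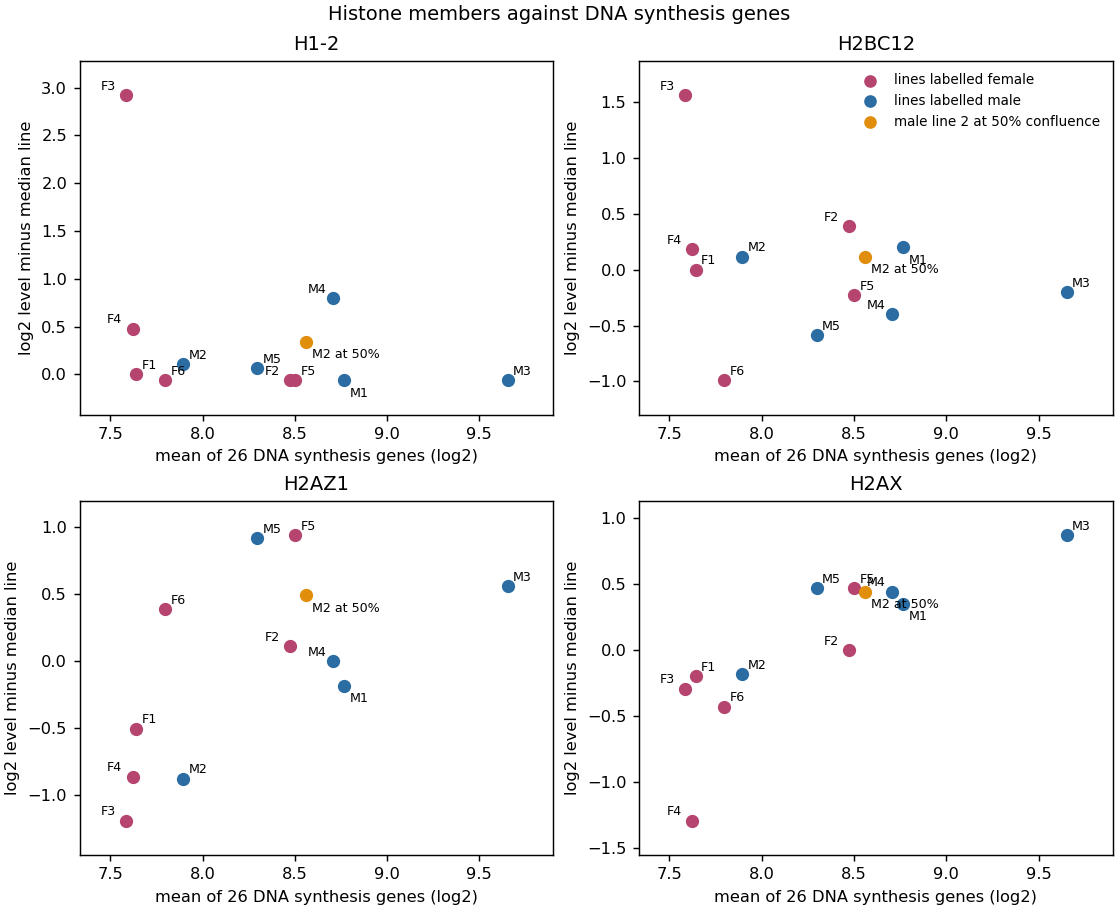
Log2 level of each member minus its median over the 11 standard lines (vertical, quantile-normalized) against the mean log2 level of 26 DNA synthesis genes (horizontal), 1 point per array, coloured by label and culture. The points of H2AX rise to the right (r = 0.82 over the 11 standard lines), those of H2BC12 do not (r = -0.27), and F3 lies at the left edge of every panel.

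Between members, H2BC12 and H2AZ1 ran opposite ways (r = -0.70, rho = -0.66, n = 11, permutation p = 0.00963 and 0.0309, adjusted p = 0.0337 and 0.0853). Leaving out the line labelled female 3 gave r = -0.57 with a permutation test's adjusted p of 0.240, and leaving out the 2 lines farthest on H2BC12 gave -0.63. The adjusted p was 0.0634 without female 5, 0.0612 without male 3 and 0.0925 without male 5, again by permutation test. It was also above 0.05 after median scaling (r = -0.54, adjusted p = 0.119) and on residuals after sex and age (r = -0.55, adjusted p = 0.162). Females 5 and 6 and males 3 and 5, the 4 highest lines for H2AZ1, all had H2BC12 below its median of 342. The variants H2AZ1 and H2AX ran together (r = 0.66, rho = 0.68, n = 11, permutation p = 0.0248 and 0.0250, adjusted p = 0.0524 and 0.0853), with r = 0.67 without the line labelled female 3 and 0.65 without the 2 farthest lines. The 2 replication-linked members had r = 0.75 and rho = 0.19 (n = 11, permutation p = 0.0514 and 0.575, adjusted p = 0.0814 and 0.575). That relation rested on the line labelled female 3, since r was -0.030 without it, and 0.25 without it and male 4.

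The likeness of both replication-linked members to the other replication-dependent genes was lower when that line was left out. Over 11 lines the median r of H2BC12 with the 10 other tested genes was 0.75, with all 10 positive, and over the 10 other lines it was 0.43, with 8 positive. For H1-2 the medians were 0.67 (10 positive) and 0.039 (5 positive). For H2BC12 the 5 genes on probe sets marked as sharing sequence within the family had r of 0.41 to 0.72 over those 10 lines, the highest with H2BC15. The other 5 had -0.17 (H2BC21), -0.030 (H1-2), 0.11 (H2BC5), 0.15 (H2AC6) and 0.59 (H1-3), so the median of 0.43 came mostly from the shared-sequence probe sets. Among variants, H2AX was most like MACROH2A1 (r = 0.92 over 11 lines and 0.92 without the line labelled female 3). These values are descriptions over lines that share the same arrays, and values at the floor enter those of 9 of the 11 replication-dependent genes.

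The genes most like each member were looked up among 5464 genes outside the histone lists, by Pearson r over the 11 lines. For H1-2 they were PTGS2, which encodes the inducible cyclooxygenase COX-2 (r = 0.96, and 0.82 without the line labelled female 3), and ALDH1A1 and AOX1 (r = 0.95 each). PTGS2 was at the floor in 8 lines. ALDH1A1 and AOX1 were above it only in the line labelled female 3, at 380 and 156, so the likeness of these genes to H1-2 rests on that line. H2BC12 was most like TMED10, a cargo receptor of the secretory pathway (r = 0.94, and 0.84 without that line), with intensities of 3503 to 7189. NOS2, the inducible nitric oxide synthase (0.88, and 0.68), and TXN, thioredoxin (0.87, and 0.75), came next, and each of these 3 genes had its highest value in the line labelled female 3.

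The likenesses of the variants did not rest on that line. H2AZ1 was most like KPNA2, an importin of nuclear transport (r = 0.94, and 0.93 without the line labelled female 3), PTPA, an activator of protein phosphatase 2A (0.94, and 0.92), and HNRNPH1, an RNA-binding protein (0.94, and 0.95). KPNA2 ran from 290 to 1215. H2AX was most like KIFC1, a kinesin of the mitotic spindle (r = 0.96, and 0.98), SYNCRIP, an RNA-binding protein (0.96, and 0.95), and PTGES3, a co-chaperone of HSP90 (0.94, and 0.95). KIFC1 ran from 165 to 910, with none of the 11 lines at the floor.

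The sexes overlapped for all 4 members, and none was called. Over all genes limma called 0 of 7541 probe sets by sex (0%) at an adjusted p of 0.05, with 398 at an unadjusted p under 0.05. H2AX had log2 levels of 9.23 ± 0.58 (SD, n = 6) in the lines labelled female and 9.91 ± 0.38 (SD, n = 5) in the male lines. Its male minus female difference was 0.68 log2 units (SE 0.28, limma adjusted p = 0.888), among the 398 before adjustment, and 0.68 without the line labelled female 3 (adjusted p = 0.939). In intensities this was 284 to 1018 against 641 to 1391, with 4 of the 5 male lines above every line labelled female except female 5, and male 2 below female 2. The male lines also had a higher median for the DNA synthesis genes, by 0.74 log2 units with 25 of 26 genes higher, beside 3689 of all 7541 probe sets. Without the line labelled female 3 the median difference of these genes was 0.63. Whether this bears on H2AX was not tested.

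The other 3 members differed less between the sexes. H2AZ1 had 10.65 ± 0.80 (SD, n = 6) and 10.91 ± 0.69 (SD, n = 5), a difference of 0.27 (SE 0.39, limma adjusted p = 0.944), and of 0.069 without the line labelled female 3. H2BC12 had 8.51 ± 0.84 (SD, n = 6) and 8.18 ± 0.33 (SD, n = 5), a difference of -0.33 (SE 0.35, limma adjusted p = 0.905). H1-2 had 7.24 ± 1.19 (SD, n = 6) and 6.88 ± 0.36 (SD, n = 5), a difference of -0.37 (SE 0.46, limma adjusted p = 0.930). Without the line labelled female 3 these differences were -0.044 and 0.11, so the lower male level of H2BC12 and H1-2 came from that line. The 11 replication-dependent genes had a median difference of -0.33, with 1 higher in males, and -0.050 without that line. The 5 variants had a median of 0.27 with all 5 higher in males, and 0.22 without it, beside -0.0081 over all tested probe sets. In each list 0 genes were called.

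Donor age called 0 of 7541 probe sets in limma as well (0%), with 407 at an unadjusted p under 0.05, and sex as a covariate. H2BC12 had the steepest slope of the 4 members, 0.47 log2 units per 10 years (SE 0.14, limma adjusted p = 0.830), and was among the 407 before adjustment. Its lowest values, 179 and 229, were those of the 2- and 3-year-old donors, and its highest, 962, that of the 35-year-old donor. Without the line labelled female 3 the slope was 0.31 (SE 0.13, limma adjusted p = 0.993). Among adults without that line it was -0.13 (adjusted p = 1), so the slope rested on the oldest donor and the 2 youngest, an alternative added after the data were seen.

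H1-2 had a slope of 0.41 (SE 0.22, limma adjusted p = 0.905), and 0.039 without the line labelled female 3. H2AZ1 ran the other way, at -0.36 (SE 0.19, limma adjusted p = 0.901) and -0.25 without that line, with 2272 and 3393 in the 2- and 3-year-old donors. Among adults without it the slope of H2AZ1 was 0.28. H2AX had a slope of 0.0077, far within its SE of 0.15 (limma adjusted p = 0.997), and its sign turned when single lines were left out. All 11 replication-dependent genes had positive slopes, with a median of 0.31, and 8 of 11 with a median of 0.068 without the line labelled female 3, so that line carried most of it. The slope of H2BC12 helped to choose the set. The 9 genes that are not members all had positive slopes as well, and their median was not computed. The 5 variants had a median of -0.00018 with 2 positive, and all 7541 tested probe sets had a median of -0.0017 with 3726 positive. In each list 0 genes were called.

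At 50% confluence the variants stood higher than in the standard culture of the same line, while the replication-linked members differed little. H2AZ1 went from 963 to 2644, a difference of 1.36 log2 units or 2.57-fold, and H2AX from 641 to 1037, a difference of 0.62 or 1.54-fold. H1-2 had 130 and 111, and H2BC12 had 375 and 332. After normalization the difference was 0.24 for H1-2 and -0.00087 for H2BC12, as deposited it was -0.23 and -0.18, beside -0.063 for the median of all probe sets, and after median scaling it was 0.27 and 0.32, beside 0.43. H2BC12 thus lay at or below the median of all probe sets in each case, and H1-2, near the floor, lay above it after quantile normalization only. There was 1 array in each condition, so no test was made. A 2-fold rise was passed by 1 of the 4 members, H2AZ1, and a 2-fold fall by 0, beside 531 probe sets (7.04%) and 545 (7.23%) of all 7541.

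All 4 values at 50% confluence lay within the range of the 11 standard lines. Male line 2 in standard culture was the second lowest of the 11 for H2AZ1, and set against the median of the lines the array at 50% confluence was higher by 0.49 for H2AZ1 and by 0.44 for H2AX. Scaling to a common median moved the median of all probe sets by 0.43, and H2AZ1 was then higher by 1.95 and H2AX by 1.19, past 2-fold. The array at 50% confluence had the largest share of probe sets at the floor, 49.2%, and male line 2 the smallest, 40.1%.

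The other variants moved with H2AZ1. All 5 tested variant genes were higher at 50% confluence as deposited, after quantile normalization and after median scaling. The median was 0.77 log2 units after quantile normalization, beside 0 over all tested probe sets, 0.85 as deposited, beside -0.063, and 1.35 after median scaling, beside 0.43. H2AZ2 rose past 2-fold on both probe sets, from 492 to 1244 (1.32) and from 331 to 824 (1.35), to values above all 11 standard lines. Male line 2 in standard culture was the lowest of the 11 on both probe sets. Set against the median of the lines, the array at 50% confluence was higher by 0.99 and 0.48, short of 2-fold. MACROH2A1 went from 811 to 1465 (0.77). The 2 probe sets of H1-10 disagreed, at 0.60 for the brighter and -0.15 for the dimmer, and the brighter stands for the gene in the count.

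The 11 replication-dependent genes had a median difference of -0.0069, with 2 higher and 7 lower, beside 0 over all tested probe sets. After median scaling, with 12 genes tested, 9 were higher and 3 lower, and the median was 0.25 beside 0.43 over all probe sets. As deposited it was -0.24 beside -0.063, so the list lay at or below the median of all probe sets under each of these scalings. H2BC6 was the gene that passed 2-fold, from 288 to the floor of 100 (-1.43). H2BC15 had 180 and 191, and H2BC14 566 and 474.

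**Figure D4:**
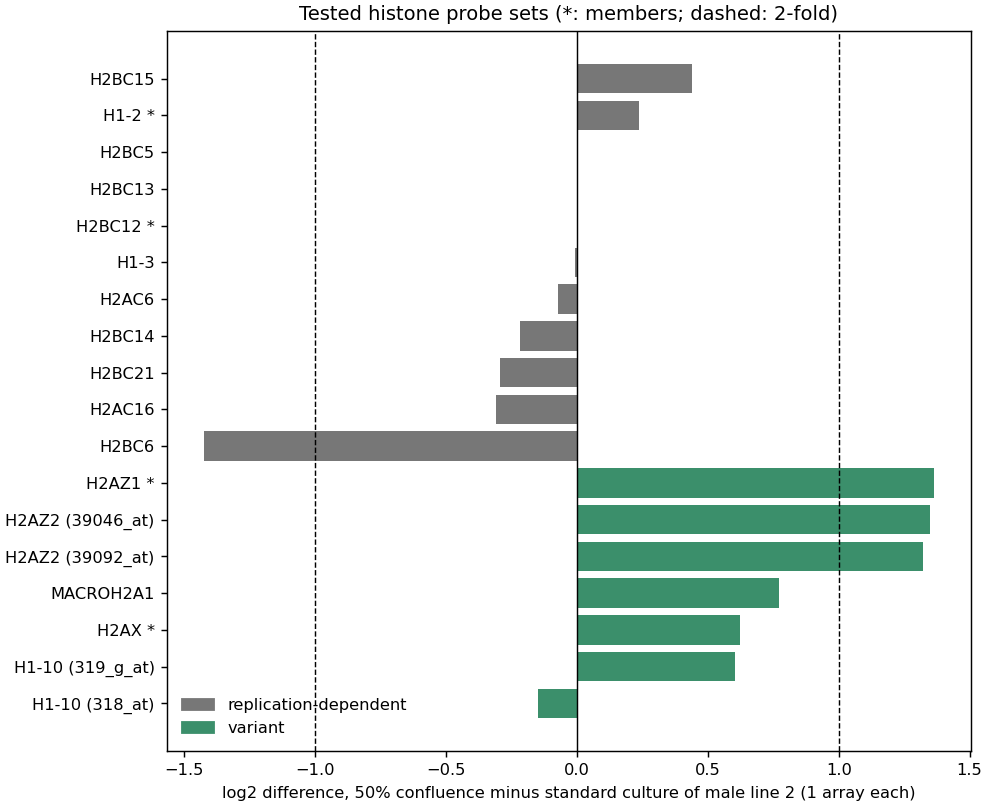
Log2 difference between the array of male line 2 at 50% confluence and its standard array (quantile-normalized, 1 array each, no error) for each tested histone probe set; grey bars are replication-dependent genes, green bars variants, stars mark members and dashed lines 2-fold. H2AZ1 and both probe sets of H2AZ2 pass 2-fold upward, H2BC6 passes it downward, and H2BC12 lies near 0.

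The cell cycle lists were higher in the same culture. Of the 34 mitosis genes 33 were higher, with a median of 1.15 log2 units and 19 past 2-fold. Of the 26 DNA synthesis genes 21 were higher, with a median of 0.90 and 7 past 2-fold. Among all 7541 tested probe sets 3641 were higher and 3479 lower, with a median of 0. BUB1B, a spindle checkpoint kinase, went from the floor of 100 to 646, CCNB2 from 182 to 848 (5.12-fold) and RRM1, the large subunit of ribonucleotide reductase, from 198 to 706 (3.98-fold). LIG1, which joins DNA fragments at the replication fork, went from the floor to 323. Exceptions were BIRC5, the mitotic gene for survivin, which went from 560 to 151, E2F1, from 411 to 267, and PRIM1, a primase subunit, from 235 to the floor.

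Of the 25 histone chaperones 19 were higher at 50% confluence (median 0.37). NPM3, of the nucleoplasmin family, went from 138 to 318 and ACTL6A, a subunit of chromatin remodelling complexes, from 243 to 569, while SUPT6H went from 473 to 288 and DAXX, a chaperone of the variant H3.3, from 2386 to 1769. Of the 16 genes for the processing of histone message ends 13 were higher (median 0.60), with the spliceosomal Sm protein genes SNRPB from 4665 to 8934 and SNRPF from 774 to 1716. CSTF3, a cleavage factor subunit, went from 441 to 316 and SYMPK, the scaffold of the cleavage complex, from 216 to 141. Of the 13 growth arrest genes 9 were lower (median -0.50), IGFBP2 from 6346 to 550 and GAS1 from 1569 to 487, while BTG1 went from 1009 to 2104 and TOB1 from 541 to 633.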

How the data were processed

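Per the labels, each sample is total RNA of a gorilla fibroblast line on 1 expression array. The deposited file holds linear intensities, with a whole number for each probe set and array. How the authors summarised, scaled and floored them is not stated in the sources used here. The 67 control probe sets were left out. In the platform annotation 10961 probe sets had 1 symbol, 545 had several and 1119 were not listed. The gorilla RefSeq gene table served for names and chromosome neighbours.

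Log2 intensities of the 12 arrays were quantile normalized together, and probe sets with a mean above the 40th percentile were tested (7541). For the 11 standard arrays, limma 3.58.1 (R 4.3.3; lmFit and eBayes, two-sided, Benjamini-Hochberg, threshold 0.05) fitted sex, and age with sex as covariate. Correlations used Python 3.11.15 and scipy 1.17.1. The fits were tested on simulated data. A gene was represented by its brightest tested probe set. The number of arrays limits the precision.

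Named genes were every member, every tested histone gene, the 3 genes most like each member, and for each other list the 2 largest confluence differences per direction with a brighter value over 2 times the floor. Members and lists were chosen with earlier results of these data known. Alternatives covered scaling, floor, filter, probe set, donors, covariates, age scale, array weights, each line left out, and male 2 taken from its 50% confluence array.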

Additional observations from a re-analysis of the deposited data

Results flagged for a closer look

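Values that lay far from the rest of their group were sought with Dixon's ratio in 36 groups of 5 or 6 lines. It is the gap to the nearest value over the range of the group, taken here on quantile-normalized log2 levels. Intensities beside the ratios are as deposited. Chance flags about 1 in 20 groups of untied values, and 3 were found. Each of these 3 groups held lines tied at the floor of 100, so that rate is no measure for them. H1-2 in the line labelled female 3 had a ratio of 0.819 among the lines labelled female, 785 against at most 135 in the other 5. H1-2 in male 4 had a ratio of 0.802 among the male lines, 196 against at most 130. H2BC5 in male 3 had a ratio of 1, since its 112 was set against 4 male lines at the floor of 100.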

How the results depend on the processing

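Sex called 0 probe sets, and 2 with the 50% confluence array for male 2 (RPS4Y1 and a probe set without a single symbol). With 1 line left out it called 0 to 1. It called 1, RPS4Y1, among adults without the line labelled female 3 and 1 with no filter without that line. The H1-2 sex difference was 0.11 in each of those 3 fits without the line (0.111 and 0.106), with -0.52 to 0.11 when leaving out each line, and H2AZ1 fell to -0.045 among adults without it. The H2AX age slope was -0.044 among adults, -0.062 without the sex covariate, -0.073 to 0.071 when leaving out each line, and -0.054 among adults without the line labelled female 3, where H1-2 had -0.11, H2BC12 -0.13 and H2AZ1 0.28. Probe sets 2-fold lower at 50% confluence numbered 848 as deposited. Median scaling gave 1309 higher and 231 lower, a floor of 200 gave 253 and 283, and the median of the lines as reference gave 157 and 184, with H2AZ1 at 0.49. With the DNA synthesis genes, H2AZ1 had r = 0.68 after median scaling and 0.77 on residuals after sex and age, H2BC12 had -0.46 to 0.027 and H2AX 0.79 to 0.90 when leaving out each line. For H1-2 and H2BC12 that range was -0.030 to 0.81. The cause of these shifts was not tested. Of all recomputed values 468 stayed on their side of the threshold, within the spread of the lines or near the count given (small confluence differences changed sign among them), 14 moved beyond that, 15 reversed, 15 gained a call and 14 lost one. The probe set standing for a gene changed nothing for the members, which have 1 each. No paired analysis was possible because the replicate numbers were given in order within each group and pair no lines. Low intensities limit H1-2, at the floor in 5 lines.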
